A study of Homo sapiens with 58 samples.

Results

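The mitosis and G2/M genes are a named list of 36 genes whose proteins carry a cell from the G2 phase through mitosis, and all 36 were found among 19775 genes measured in HaCaT cells. Each gene was represented by the Affymetrix probe set that carried its symbol alone and had the highest mean over the 58 arrays. The list was set by name, with earlier results of these data known. It was compared across cell line, medium, ligand and inhibitor. Comparisons with serum arrays pooled the times, and the others kept 4 h and 8 h apart.

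HaCaT is an immortalized human keratinocyte line, and all 5 lines here were derived from it: HaCaT with no forced expression, HaCaT-vector (labelled mock), HaCaT-EGFR with the wild-type receptor, HaCaT-p65 with the NF-κB subunit encoded by RELA, and HaCaT-HRAS with HRAS-VAL12D. In serum there were 5 HaCaT-EGFR arrays, 3 labelled 0 h and 2 labelled 4 h or 8 h, and 3 arrays of each other line, labelled 0 h. After 12 h without serum, cells stayed without ligand (serum starved) or received EGF or TNF-α. HaCaT-EGFR had 5 starved and 5 EGF arrays at 4 h and 2 of each at 8 h, HaCaT-vector had 4 starved, 4 EGF and 3 TNF-α arrays at 4 h, and HaCaT-p65 had 2 starved and 4 TNF-α arrays at 4 h and 1 of each at 8 h. A further 8 arrays received an inhibitor, which was gefitinib against EGFR itself, LY294002 against PI3K or U1026 (the labels' spelling) against MEK, with 1 array for each line, medium and time. No HaCaT-HRAS array was starved or stimulated, and nothing in the labels says that replicates were separate cultures, so the p-values measure the spread between arrays.

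The introduced genes and the cell identity were checked in the same arrays. Of these HRAS alone passed, at 2.41 in HaCaT-HRAS over HaCaT-vector. The RELA probe set used gave 0.27 in HaCaT-p65 (limma adjusted p = 0.26) and the other 0.40. The EGFR probe set used gave -0.02 in HaCaT-EGFR (adjusted p = 0.99), and all 9 ran from -0.42 to 1.00, with 6 above 0. Which of them lie in the introduced sequence is not given in the sources used here, so RELA and EGFR do not check the line labels. Over the groups the mean log2 level of 10 keratinocyte markers ran from 10.58 to 11.48, that of 9 fibroblast markers from 5.19 to 5.75, of 6 melanocyte markers from 4.51 to 4.95, of 7 leukocyte markers from 4.10 to 4.36 and of 7 endothelium markers from 4.30 to 5.12. In HaCaT-HRAS over HaCaT-vector 6 of 10 keratinocyte markers were lower and 1 endothelium marker, CDH5, was higher (4.29), and in HaCaT-EGFR over HaCaT-vector 1 fibroblast marker, COL3A1, was higher (2.24). The part of these shifts in the members' differences was not tested.

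Entry into mitosis is driven by the kinase CDK1 with cyclins A and B, which the phosphatase CDC25C activates, and by the Polo and Aurora kinases. Kinesin motors and spindle proteins then build the spindle, the checkpoint proteins hold anaphase until every chromosome is attached, and the anaphase-promoting complex with CDC20 and UBE2C ends mitosis by marking cyclin B and securin (PTTG1) for destruction. These genes are transcribed late in the cell cycle. In resting and early-cycle cells the DREAM complex holds them down through the cell cycle genes homology region, a short promoter element called CHR, and in dividing cells MYBL2 and FOXM1 raise them through the same sites, beside CCAAT boxes bound by NF-Y. In keratinocytes they mark the dividing basal compartment. In bulk RNA, fewer dividing cells and less of each RNA per dividing cell cannot be told apart.

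Promoter sequence showed what the members share that their choice by function did not use. RefSeq promoters (GRCh38.p14, 250 bases before to 50 after the start) were matched for 30 of the 36 genes. Searched on both strands, the CHR letters TTTGAA or TTCGAA were present in 70% of the members' promoters and in 16.6% of all 27305 promoters. CCAAT was present in 86.7% of the members' promoters against 35.7% of all, and 66.7% against 6.58% held both elements. Among 39 genes of G1/S and DNA replication the CHR letters were in 5.71% of 35 matched promoters, and among further mitotic genes in 76.3% of 38. The 120 bases upstream of the start are shown for some of the genes named in the results. They are not shown for CCNA2, PTTG1 and NUSAP1, which held CCAAT alone in these bases, or for MAD2L1, which held neither element. In the whole window NUSAP1 and MAD2L1 held both elements. Capitals mark the CHR letters, which read TTCAAA when they lie on the opposite strand, and CCAAT, which then reads ATTGG. Adjacent capitals can be overlapping or touching matches, as in the CCAATTGG of HMMR. A match is a description of these letters and not a site shown to be bound. The windows were chr16:23678769-23678888 on the plus strand, chr1:43358861-43358980 on the plus strand, chr10:92593010-92593129 on the plus strand, chr5:163460512-163460631 on the plus strand, chr10:128126424-128126543 on the minus strand, chr5:69167030-69167149 on the plus strand and chr5:138338356-138338475 on the minus strand.
PLK1: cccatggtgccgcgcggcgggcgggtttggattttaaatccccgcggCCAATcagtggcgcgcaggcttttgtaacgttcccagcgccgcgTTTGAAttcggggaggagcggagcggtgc
CDC20: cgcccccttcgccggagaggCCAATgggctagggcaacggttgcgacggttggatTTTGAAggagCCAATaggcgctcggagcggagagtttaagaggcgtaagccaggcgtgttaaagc
KIF11: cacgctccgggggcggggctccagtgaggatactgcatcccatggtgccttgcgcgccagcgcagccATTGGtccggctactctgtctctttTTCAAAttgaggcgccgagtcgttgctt
HMMR: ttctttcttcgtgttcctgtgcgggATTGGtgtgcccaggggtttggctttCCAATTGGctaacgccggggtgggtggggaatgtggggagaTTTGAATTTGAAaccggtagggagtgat
MKI67: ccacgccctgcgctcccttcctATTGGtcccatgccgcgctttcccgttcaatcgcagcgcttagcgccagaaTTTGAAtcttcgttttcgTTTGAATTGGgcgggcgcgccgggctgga
CCNB1: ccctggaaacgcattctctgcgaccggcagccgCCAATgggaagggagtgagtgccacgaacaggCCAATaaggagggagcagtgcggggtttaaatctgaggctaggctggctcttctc
CDC25C: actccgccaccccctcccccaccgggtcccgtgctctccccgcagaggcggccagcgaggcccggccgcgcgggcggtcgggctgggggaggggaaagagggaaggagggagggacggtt

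PLK1, CDC20, KIF11, HMMR and MKI67 carried both elements within these bases, CCNB1 carried CCAAT alone and CDC25C carried neither in the whole window. Only the spellings TTTGAA and TTCGAA were searched, in a single window per gene. A gene without a match is therefore not shown to lack the element. HMMR, KIF11 and CDC25C were among the genes that fell with EGF, and a link between these letters and the fall was not tested.

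Over the 58 arrays the 36 genes moved largely together. The correlation of each gene's log2 level with the mean of the other 35 had a median of 0.70, and 29 of 36 were above 0.5, whereas the median of all genes with the list mean was -0.01. The kinesin KIF2C followed the others most closely (r = 0.92). AURKA, the Aurora A kinase of the spindle poles, followed them least (0.16), then PTTG1 (0.29), ECT2 (0.37), HMMR (0.41) and UBE2C (0.42). Once the means of condition and date were removed, the median was 0.75 and AURKA stood at 0.75. The arrays share lines and dates, so these values are descriptions. Outside the list the genes nearest to its mean were RACGAP1 (0.88), ASPM (0.88), CDCA8 (0.86), CENPI (0.86) and SPAG5 (0.86), all of which act in mitosis or at centromeres.

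The mean log2 level of the 36 genes overlapped between lines in serum and was lower with either ligand in HaCaT-vector. In serum it was 9.01 ± 0.14 (SD, n = 3) in HaCaT, 9.11 ± 0.052 (n = 3) in HaCaT-vector, 9.08 ± 0.064 (n = 3) in HaCaT-HRAS, 9.01 ± 0.18 (n = 3) in HaCaT-p65 and 9.18 ± 0.14 (n = 5) in HaCaT-EGFR, and the ranges of all 5 lines overlapped. In HaCaT-vector the 4 starved arrays lay at 9.16, 9.14, 9.10 and 9.11, the 4 EGF arrays at 8.90, 8.93, 8.94 and 8.95, and the 3 TNF-α arrays at 8.98, 9.01 and 8.97. Every EGF and TNF-α array of HaCaT-vector was below every starved one. In HaCaT-EGFR at 4 h the 5 starved arrays ran from 8.89 to 9.38 (median 9.26) and the 5 EGF arrays from 8.61 to 9.24 (median 9.00), so these groups overlapped. Starved and EGF arrays of the same replicate label shared a date, and in each of these 5 pairs the EGF array was the lower, at 8.61 against 8.89, 9.24 against 9.35, 9.00 against 9.18, 9.06 against 9.38 and 8.97 against 9.26.

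**Figure D1:**
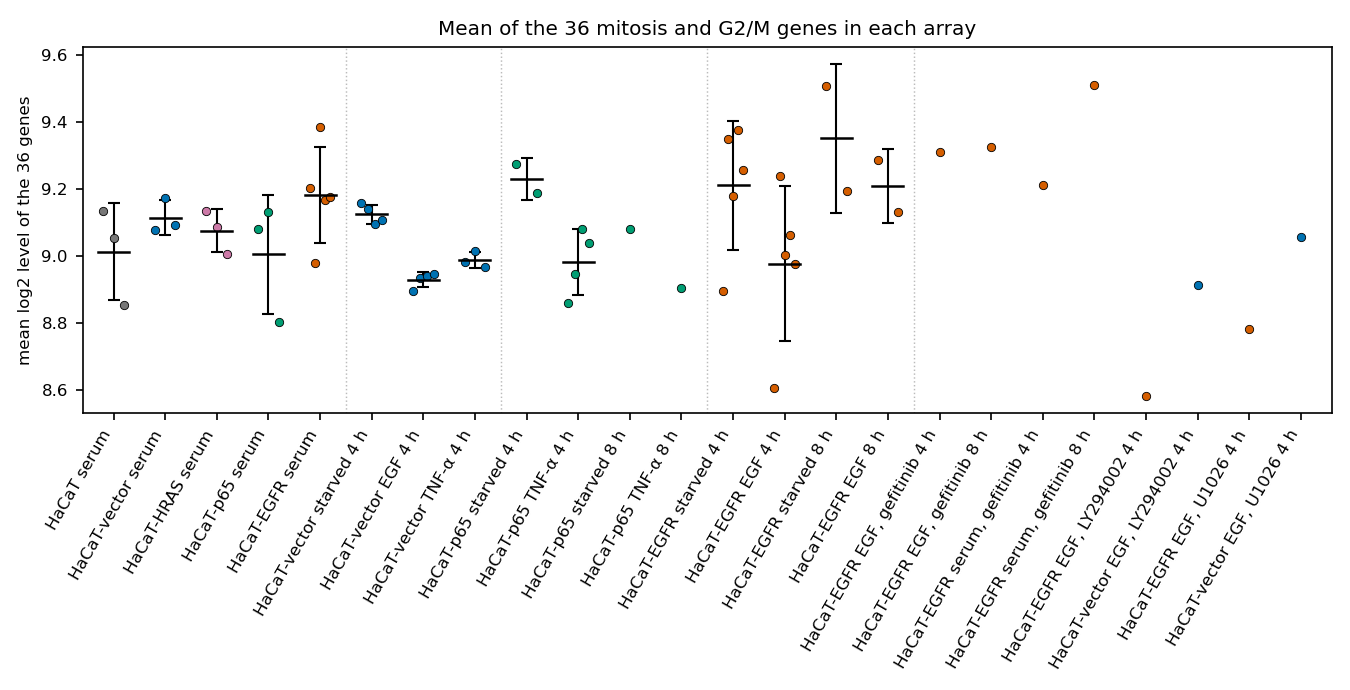
Mean log2 level of the 36 genes (vertical axis) in each of the 58 arrays, by group (horizontal axis) and coloured by line. Points are arrays, and bars show the mean and SD of groups with more than 1 array. HaCaT-vector falls from 9.10 to 9.16 when starved to 8.90 to 8.95 with EGF at 4 h, and the lowest array is HaCaT-EGFR with EGF and LY294002 at 8.58.

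Across 24 comparisons limma made 34 calls in 13 of the members at a Benjamini-Hochberg adjusted p under 0.05 over all 19775 genes, and 23 members had none. Of the calls, 28 were between lines and 6 concerned EGF or gefitinib. Signs were uneven in some line comparisons too, with 31 of 36 members above 0 in HaCaT-EGFR over HaCaT (median 0.17), 29 above 0 in HaCaT-vector over HaCaT (0.11) and 27 below 0 in HaCaT-p65 over HaCaT-vector (-0.10). Without each array in turn these medians ran, in that order, from 0.09 to 0.26, from 0.001 to 0.17 and from -0.16 to 0.006. The latter 2 directions thus depended on single arrays. Of the entry genes CDC25C and CCNA2 were called at least once, and CDK1, CCNB1, CCNB2, CDKN3 and FOXM1 were not.

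HaCaT-EGFR differed from HaCaT-vector in serum in 2 members, UBE2C and TPX2, both on chromosome 20. UBE2C, the ubiquitin-conjugating enzyme of the anaphase-promoting complex, measured 9.14, 9.39, 9.32, 9.13 and 9.44 in the 5 HaCaT-EGFR arrays and 8.36, 8.39 and 8.36 in HaCaT-vector. TPX2, which activates Aurora A on the spindle, measured 9.56, 9.54, 9.62, 9.30 and 9.85 against 8.59, 8.83 and 8.66. Neither gene's groups overlapped. With dates in the fit the difference rested on the 3 HaCaT-EGFR arrays of date 1, listed first. UBE2C was higher by 0.91 ± 0.14 (SE; adjusted p = 8.5e-06) and TPX2 by 0.88 ± 0.17 (adjusted p = 0.00024). Of the 36 genes 2 were higher and 0 lower, against a background over all genes of 3.97% higher and 3.9% lower. The count was thus near the share over all genes, and the member median was 0.04. AURKA, with the third-smallest p, gave -0.61 ± 0.21 (adjusted p = 0.065). With the replicate number as a block, fitted to the arrays compared, 1 member was lower.

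Against HaCaT itself, HaCaT-EGFR had 1 member higher and 0 lower (background 1.6% and 2.28%). TPX2 was 9.16, 8.86 and 8.95 in HaCaT, and the difference was 0.59 ± 0.17 (adjusted p = 0.034). That call was lost without any 1 of HaCaT-EGFR replicates 1, 2 and 3 or HaCaT replicates 2 and 3, with differences from 0.52 to 0.60. PTTG1 (0.61, adjusted p = 0.064) and UBE2C (0.45, adjusted p = 0.065) came next. The empty vector against HaCaT gave 0 and 0 calls (background 1.23% and 1.64%), with 3 members at an unadjusted p under 0.05, UBE2C at -0.47, PTTG1 at 0.55 and HMMR at 0.55. UBE2C was thus lower in HaCaT-vector than in every other line's arrays, from 8.36 to 8.39, and HaCaT stood at 9.01, 8.69 and 8.82.

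HaCaT-p65 differed from HaCaT-vector in serum in PTTG1 and HMMR, both on chromosome 5 with 6 measured genes between them, and in UBE2C. PTTG1, the securin that the anaphase-promoting complex marks for destruction, measured 9.50, 9.65 and 9.29 in HaCaT-p65 and 10.38, 10.85 and 10.51 in HaCaT-vector. HMMR, a hyaluronan receptor that also binds spindle microtubules, measured 9.01, 8.97 and 8.70 against 9.79, 9.85 and 9.81. The groups lay well apart for both genes. PTTG1 was lower by a log2 difference of -1.10 ± 0.19 (adjusted p = 7.1e-05) and HMMR by -0.92 ± 0.20 (adjusted p = 0.0011), and both calls held without each array in turn. PTTG1 has near-identical copies in the genome, and its 1 probe set may count them too. UBE2C was higher by 0.45 ± 0.14 (adjusted p = 0.038), a call lost without any 1 of the 3 HaCaT-vector arrays or HaCaT-p65 replicates 1 and 2 (0.36 to 0.46). In all 1 member was higher and 2 were lower, against 3.99% and 3.19% of all genes, and the member median was -0.10. Against HaCaT no member passed in either direction (background 2.83% higher and 3.12% lower). There 2 had an unadjusted p under 0.05, PTTG1 at -0.55 and AURKA at 0.58.

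HaCaT-HRAS was compared with HaCaT-vector, HaCaT and HaCaT-EGFR. Against HaCaT-vector in serum 1 member was higher and 3 were lower, beside 9.57% and 8.63% of all genes. CCNA2, the cyclin of S phase and mitotic entry, measured 9.81, 9.76 and 9.59 in HaCaT-HRAS and 10.19, 10.22 and 10.32 in HaCaT-vector. MAD2L1, a checkpoint protein that inhibits CDC20, measured 9.92, 9.79 and 9.65 against 10.32, 10.05 and 10.44. NUSAP1, which bundles spindle microtubules, measured 10.59, 10.52 and 10.32 against 10.76, 10.87 and 10.81.

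None of these 3 groups overlapped with HaCaT-vector. CCNA2 differed by -0.52 ± 0.14 (adjusted p = 0.0047), MAD2L1 by -0.48 ± 0.13 (0.0052), NUSAP1 by -0.34 ± 0.09 (0.0077) and UBE2C by 0.47 ± 0.14 (0.014). The CCNA2 call held in every alternative run. MAD2L1 lost its call without HaCaT-vector replicate 3 (-0.40), NUSAP1 without HaCaT-HRAS replicate 3 (-0.26) and UBE2C without HaCaT-HRAS replicate 3 (0.42) or with every array centred on its median (0.40). With the replicate number as a block, fitted to the arrays compared, 2 members were higher and the NUSAP1 call was lost. Of the other MAD2L1 probe sets 1 gave -0.45 and 1 gave 0.01.

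Against HaCaT, HaCaT-HRAS had 3 members higher and 3 lower (background 8.85% and 8.83%). HMMR was 10.28, 10.26 and 9.94 in HaCaT-HRAS and 9.69, 8.80 and 9.31 in HaCaT, and differed by 0.89 ± 0.20 (adjusted p = 0.00065). AURKA (0.81, adjusted p = 0.0038) and PTTG1 (0.74, adjusted p = 0.0036) were also higher, and CCNA2 (-0.44), MAD2L1 (-0.37) and NUSAP1 (-0.36) lower. HaCaT itself was spread widely, with PTTG1 at 10.40, 9.35 and 10.35 and AURKA at 10.74, 11.23 and 10.23. Without HaCaT replicate 2 the PTTG1 difference was 0.40 and no longer passed, and without HaCaT replicate 3 the AURKA difference was 0.56 and no longer passed. CCNA2 lost its call without HaCaT replicate 1 or 2 or HaCaT-HRAS replicate 3 (-0.42 to -0.38), MAD2L1 without any 1 of 5 of the 6 arrays (-0.39 to -0.30) and NUSAP1 without HaCaT-HRAS replicate 3 (-0.28). Fitted to these 6 arrays alone, none of the 36 passed.

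HaCaT-HRAS and HaCaT-EGFR differed from each other in 9 members. In HaCaT-HRAS over HaCaT-EGFR in serum 2 members were higher and 7 lower, beside 9.89% and 9.47% of all genes, and the member median was -0.17 against -0.04 for all genes. AURKA was 11.69, 11.56 and 11.40 in HaCaT-HRAS and 10.47, 10.40, 10.41, 10.04 and 10.82 in HaCaT-EGFR, with no overlap, and differed by 1.12 ± 0.21 (adjusted p = 7.2e-05). Its other probe sets gave 0.98 and 1.12. HMMR was higher by 0.54 (adjusted p = 0.047). TPX2 (-0.72), the kinetochore motor CENPE (-0.60), NUSAP1 (-0.49), CCNA2 (-0.45), UBE2C (-0.45), MAD2L1 (-0.38) and the cytokinesis kinesin KIF14 (-0.36) were lower. AURKA, NUSAP1 and TPX2 kept their calls in every alternative run. The number lower fell to 3 without HaCaT-HRAS replicate 2 or replicate 3 and to 4 without HaCaT-EGFR replicate 2. HMMR lost its call without any 1 of HaCaT-HRAS replicates 1 and 2 or HaCaT-EGFR replicates 1, 2 and 3 (0.48 to 0.58), and CENPE lost it without HaCaT-EGFR replicate 1 or 2 or HaCaT-HRAS replicate 2 or 3 (-0.61 to -0.53). KIF14 lost its call without HaCaT-HRAS replicate 2 or 3 or HaCaT-EGFR replicate 3 (-0.35 to -0.29), CCNA2 without HaCaT-HRAS replicate 3 or HaCaT-EGFR replicate 2 (-0.39 and -0.40), UBE2C without HaCaT-HRAS replicate 2 or HaCaT-EGFR replicate 2 or 3 (-0.43 to -0.39) and MAD2L1 without HaCaT-HRAS replicate 2 or 3 or HaCaT-EGFR replicate 2 (-0.39 to -0.31).

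**Figure D2:**
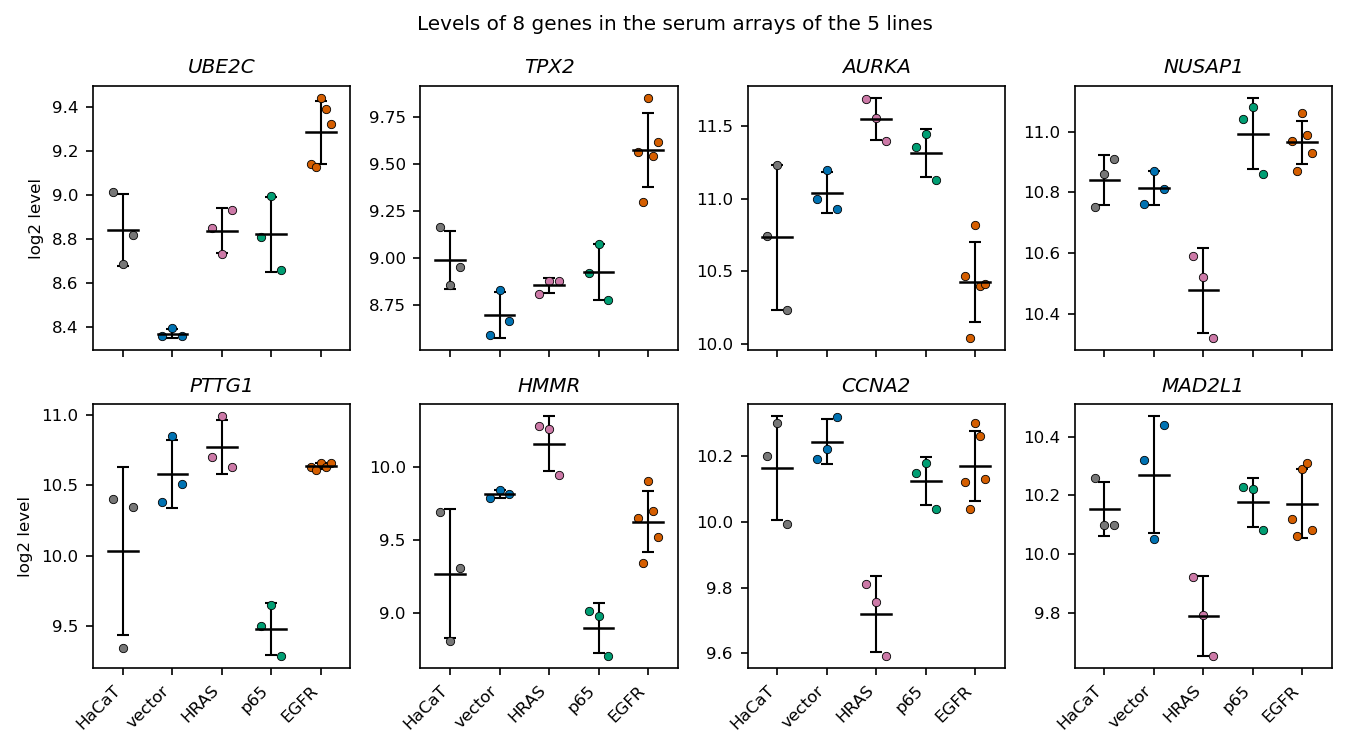
Log2 levels (vertical axes) of 8 genes in the serum arrays of the 5 lines (horizontal axes). Points are arrays and bars the mean and SD. UBE2C and TPX2 are highest in HaCaT-EGFR, PTTG1 and HMMR lowest in HaCaT-p65, and CCNA2, MAD2L1 and NUSAP1 lowest in HaCaT-HRAS.

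The members that differed between lines were sorted by chromosome after their values were seen. All 3 members on chromosome 20 (TPX2, UBE2C and AURKA) and all 3 on chromosome 4 (CCNA2, MAD2L1 and CENPE) were called in at least 1 line comparison. Of the 5 members on chromosome 5 only PTTG1 and HMMR were called, of the 5 on chromosome 15 only NUSAP1 and KIF23, and of the 5 on chromosome 1 only KIF14. None of the 3 members on chromosome 10 or of the 3 on chromosome 17 was called between lines. The 20 nearest measured genes that are no members were taken for each member, 10 on each side in RefSeq order. In HaCaT-HRAS over HaCaT-EGFR the member's difference and the median of its neighbours correlated across the 36 genes with r = 0.81 (rho = 0.72). The values were 0.76 (0.48) in HaCaT-p65 over HaCaT-vector, 0.68 (0.26) in HaCaT-EGFR over HaCaT-vector and 0.67 (0.62) in HaCaT-HRAS over HaCaT-vector. The lowest r between lines was 0.48 (0.27), in HaCaT-vector over HaCaT. With EGF at 4 h r was 0.34 (rho = 0.42) in HaCaT-EGFR and 0.12 (0.02) in HaCaT-vector, so by rank the EGF response in HaCaT-EGFR was above the 0.26 of HaCaT-EGFR over HaCaT-vector. Members near each other share neighbours, these comparisons share arrays, and the correlations are across genes, so they are given as descriptions.

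Chromosome 20 gave the fullest example. Of 179 measured genes between TPX2 and UBE2C, 77 were higher and 0 lower in HaCaT-EGFR than in HaCaT-vector (43% and 0%), with a median of 0.39. In HaCaT-vector against HaCaT, 0 of them were higher and 46 lower. Between UBE2C and AURKA 29 of 70 genes were higher in HaCaT-EGFR and 6 were higher in HaCaT-vector, while of the 20 neighbours of AURKA 0 were higher and 9 lower (median -0.39), with AURKA itself at -0.61. In HaCaT-HRAS over HaCaT-EGFR 10 of those 20 were higher and 0 lower (median 0.44).

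On chromosome 5, 8 of the 20 neighbours of PTTG1 and 9 of the 20 of HMMR were lower and 0 higher in HaCaT-p65 than in HaCaT-vector, with medians of -0.22 and -0.28. On chromosome 4, 7 of the 20 neighbours of CCNA2 and 6 of MAD2L1 were lower in HaCaT-HRAS than in HaCaT-vector, and 3 and 2 were higher. Of the 7 genes between these members 2 were higher and 1 lower there, and 1 was higher and 0 lower in HaCaT-HRAS over HaCaT and over HaCaT-EGFR. On chromosome 15, 141 of 607 genes that are no members were higher and 5 lower in HaCaT-p65 than in HaCaT-vector (23.2% and 0.824%, median 0.21), and 4 of its 5 members lay above 0. In HaCaT-HRAS over HaCaT-vector, where NUSAP1 was lower, 122 of the 607 were higher and 29 lower (median 0.04), against 0 and 3 of the 20 neighbours of NUSAP1. Beside the 4 members that fell with EGF in HaCaT-EGFR, at most 2 of 20 neighbours passed in the same direction. DNA copy number was not measured, and its part in these differences was not tested.

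**Figure D3:**
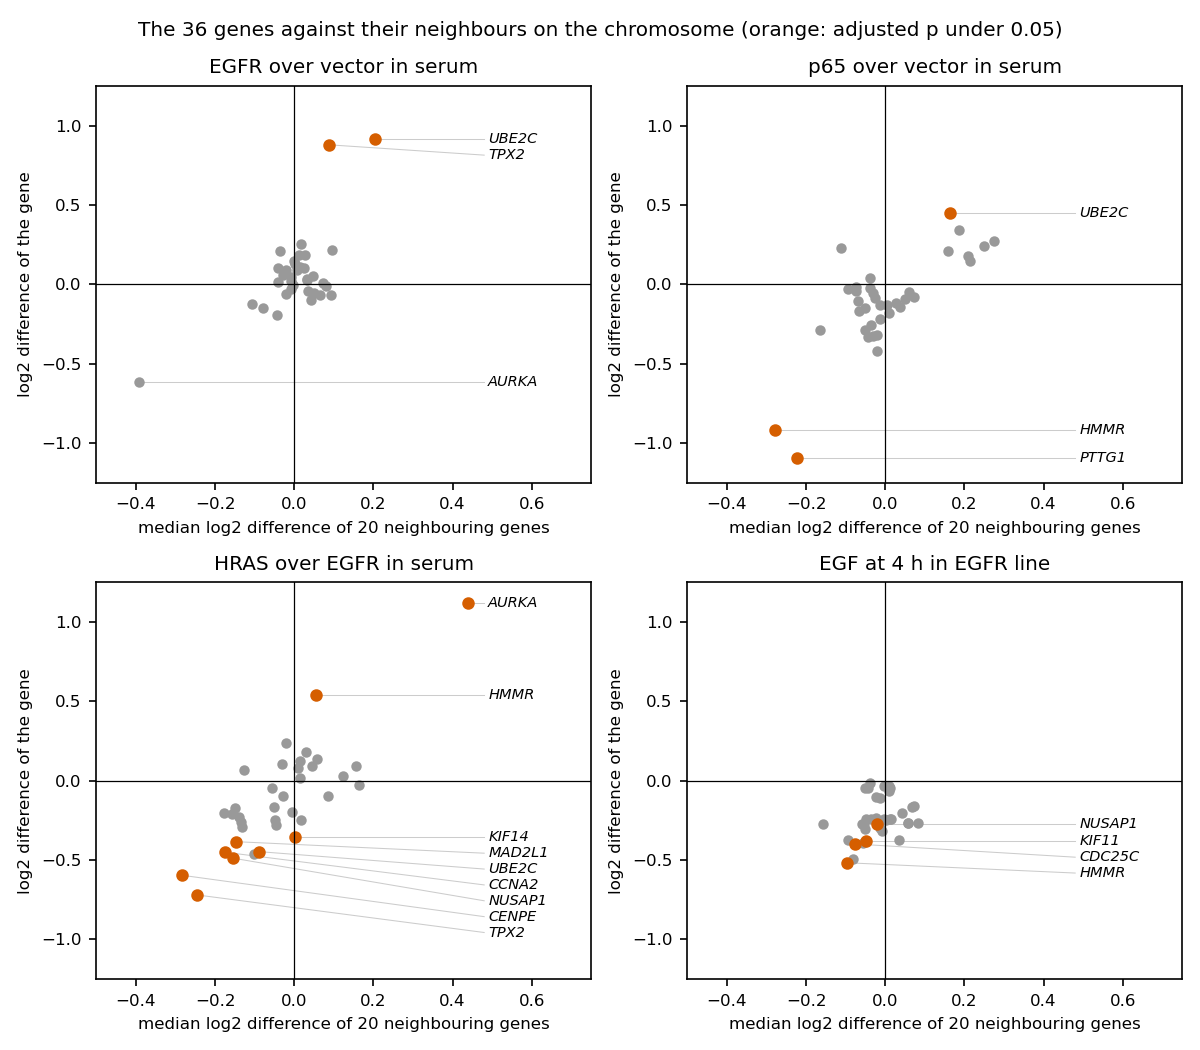
Log2 difference of each of the 36 genes (vertical axes) against the median difference of its 20 nearest measured genes on the chromosome (horizontal axes) in 4 comparisons. Orange points passed at an adjusted p under 0.05 and are named. In the line comparisons the outlying members lie on the side of their neighbours, while with EGF at 4 h the 36 genes lie below 0 over neighbours near 0.

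In starved cells at 4 h HaCaT-EGFR had 2 members higher and 0 lower than HaCaT-vector (background 2.97% and 3.36%). UBE2C was 8.70, 9.21, 9.16, 9.22 and 9.00 in HaCaT-EGFR and 8.09, 8.10, 8.15 and 8.12 in HaCaT-vector, and TPX2 9.22, 9.76, 9.46, 9.69 and 9.57 against 8.66, 8.68, 8.65 and 8.62, with no overlap for either. The differences were 0.94 ± 0.17 (adjusted p = 0.00036) and 0.86 ± 0.19 (adjusted p = 0.003). HaCaT-vector replicate 1 was the only array that shared a date with HaCaT-EGFR arrays, and without it neither passed, at 0.90 and 0.88. AURKA was at -0.58 (adjusted p = 0.18). These arrays are not those of the serum comparison.

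HaCaT-p65 starved at 4 h had 1 member higher and 0 lower than HaCaT-vector (background 1.48% and 1.98%). KIF23, a kinesin of the central spindle needed for cytokinesis, was 8.82 and 8.68 in HaCaT-p65 and 8.07, 7.92, 7.96 and 7.94 in HaCaT-vector. The difference was 0.75 ± 0.20 (adjusted p = 0.031), and it did not pass without HaCaT-p65 replicate 1 (0.59) or HaCaT-vector replicate 1 (0.92). PTTG1 (-0.84, adjusted p = 0.092) and HMMR (-0.80, adjusted p = 0.10) came next. No date held both groups, so this difference rests on dates linked through other groups.

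Serum was set against starvation in HaCaT-EGFR alone, the line with both media on 1 date, with the times pooled. No member passed in either direction (background 1.26% higher and 1.99% lower). The member median was -0.03, and 4 members had an unadjusted p under 0.05, led by CDC25C (-0.42), HMMR (-0.45) and CCNB2 (-0.33), all lower in serum. The starved cells themselves gave 0 and 0 calls at 8 h over 4 h (background 0.00506% in each direction), with 32 of 36 members above 0, a median of 0.17 and 2 at an unadjusted p under 0.05, KIF4A (0.55) and KIF23 (0.35), before FOXM1 (0.34). Within dates the direction did not hold, since the median was -0.17 on date 2 and 0.39 on date 6, and without starved 8 h replicate 1 the median was -0.05.

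EGF at 4 h was followed by lower levels throughout the list. In HaCaT-EGFR all 36 members had differences below 0, with a median of -0.25 against -0.01 for all genes, and 0 passed as higher and 4 as lower (background 2.83% and 2.55%). HMMR measured 9.90, 10.10, 10.05, 10.10 and 9.91 in the starved arrays and 9.20, 9.75, 9.57, 9.54 and 9.41 with EGF. CDC25C, the phosphatase that activates CDK1, measured 7.49, 7.83, 7.52, 7.97 and 7.66 against 7.04, 7.47, 7.21, 7.42 and 7.32. KIF11, the motor that pushes spindle poles apart, measured 10.20, 10.55, 10.41, 10.49 and 10.48 against 9.71, 10.35, 10.01, 10.12 and 10.04. Every EGF array was below every starved array for HMMR and CDC25C, and for KIF11 the groups overlapped through starved replicate 1 and EGF replicate 2.

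HMMR fell by 0.52 ± 0.14 on the log2 scale (adjusted p = 0.025), CDC25C by 0.40 ± 0.12 (0.042), KIF11 by 0.38 ± 0.11 (0.040) and NUSAP1 by 0.27 ± 0.08 (0.025). In all 16 of 36 members had an unadjusted p under 0.05. The other probe sets of HMMR, CDC25C and NUSAP1 gave -0.51, -0.42, -0.37 and -0.28. The 4 genes belong to mitotic entry, the kinesins and the spindle. By role the medians ran from -0.33 over the 4 kinases to -0.24 over the 7 entry genes and the 7 checkpoint genes.

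The direction held within each date that had both groups, while the single calls depended on the arrays used. The median over the 36 genes was -0.35 on date 2, -0.23 on date 3 and -0.22 on date 6, with 33, 34 and 34 of the 36 below 0. Without each array in turn the median stayed between -0.32 and -0.14. The number lower was 0 without starved replicate CH1, starved replicate 2 or EGF replicate 1, 1 without starved CH2, EGF CH2 or EGF replicate 3, 2 without EGF CH1 and 9 without starved replicate 1. It was 0 with these 10 arrays alone and 7 when the replicate label was added to that fit as a block. The lowest correlation between arrays of the same label was -0.24, so the labels did not pair all of these arrays. The number lower was 1 with every array centred on its median, which left 35 of 36 below 0. Starved replicate 1 and EGF replicate 1, from the same date, had the lowest list mean of their groups.

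In HaCaT-vector EGF at 4 h gave the same direction with no call. Of the 36 members 34 were below 0 with a median of -0.20 (all genes -0.01), and 0 passed in either direction (background 0.571% higher and 0.329% lower). CDC25C was 7.67, 7.53, 7.57 and 7.64 in starved arrays and 7.05, 7.21, 7.17 and 7.03 with EGF, a difference of -0.49 ± 0.14 (adjusted p = 0.085). HMMR was 10.50, 10.45, 10.31 and 10.41 against 9.83, 9.94, 9.97 and 9.90, a difference of -0.51 ± 0.16 (adjusted p = 0.17). Neither gene's groups overlapped. CCNB2 was at -0.30, and 5 members had an unadjusted p under 0.05. Within dates 4, 5 and 6 the medians were -0.18, -0.21 and -0.27.

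At 8 h in HaCaT-EGFR 30 members were below 0 with a median of -0.12 (all genes -0.04), and none passed in either direction (background 0.111% higher and 0.116% lower). With every array centred on its median 18 members were below 0 and 18 above, with a median of -0.01 (all genes 0.07). CDC25C was 7.96 and 7.78 starved and 7.46 and 7.43 with EGF (-0.43 ± 0.19), NUSAP1 differed by -0.24 and FOXM1, the transcription factor of these genes, by -0.36, and 1 member had an unadjusted p under 0.05. Without each of the 4 arrays in turn the median ran from -0.31 to 0.11, the latter without starved replicate 1. The differences of response between lines and times were tested directly. For EGF at 4 h in HaCaT-EGFR minus HaCaT-vector, and for 8 h minus 4 h in HaCaT-EGFR, none of the 36 passed in either direction, nor did any of the 19775 genes (0% higher and 0% lower in both), with 0 members and 352 and 906 of all genes at an unadjusted p under 0.05. The smallest p belonged to KIF20A (-0.23), TTK (-0.17) and CCNA2 (-0.14) in the former, with standard errors of 0.24, 0.19 and 0.17. In the latter it belonged to KIF11 (0.31 ± 0.21), MAD2L1 (0.22) and CCNA2 (0.23).

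**Figure D4:**
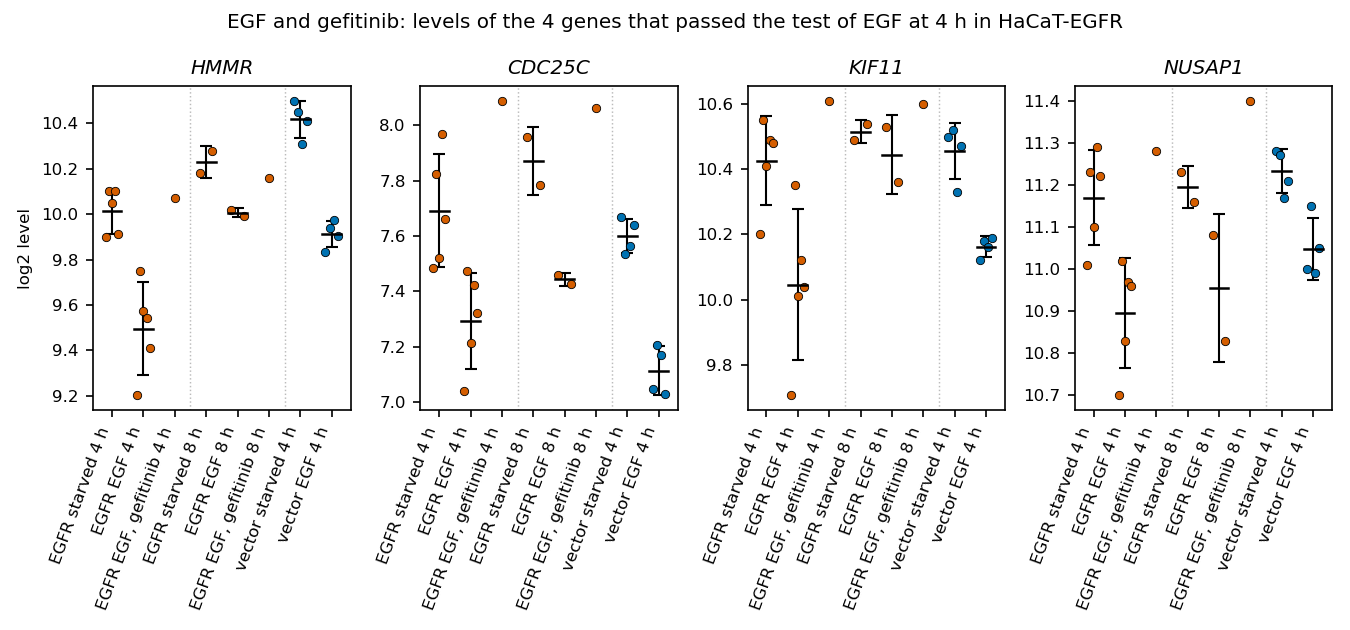
Log2 levels (vertical axes) of the 4 genes that fell with EGF at 4 h in HaCaT-EGFR, in starved arrays and arrays with EGF or EGF and gefitinib (horizontal axes), orange for HaCaT-EGFR and blue for HaCaT-vector. Points are arrays and bars the mean and SD. CDC25C with EGF and gefitinib, at 8.09 and 8.06, lies above every other array shown.

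TNF-α at 4 h was also followed by lower values, with no call. In HaCaT-vector 34 of 36 were below 0 with a median of -0.12 (background 0.905% higher and 0.0405% lower), led by HMMR (-0.42, adjusted p = 0.64), MAD2L1 (-0.23) and CDC25C (-0.28), and 1 had an unadjusted p under 0.05. In HaCaT-p65 32 were below 0 with a median of -0.25, where that of all genes was -0.06 (background 0.126% higher and 0.116% lower), and 11 had an unadjusted p under 0.05. With every array centred on its median 25 were below 0 there, with a median of -0.11 (all genes 0.08). CDC25C led (-0.62 ± 0.17, adjusted p = 0.089), followed by BIRC5, the survivin of the chromosomal passenger complex (-0.67, 0.13), and PLK1, the Polo kinase of mitotic entry (-0.72, 0.15).

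PLK1 in HaCaT-p65 was 7.68 and 7.04 in starved arrays and 5.99, 6.81, 6.97 and 6.74 with TNF-α. BIRC5 was 11.68 and 11.09 against 9.97, 10.86, 10.93 and 11.07. The highest starved and the lowest TNF-α value of both genes came from replicate 1 on date 2, where the differences were -1.70 and -1.70, and on date 3 they were -0.20 and -0.13. At 8 h, with 1 array each and no replicate check, PLK1 was 6.95 starved and 5.74 with TNF-α, and the list mean 9.08 and 8.91. The TNF-α array numbered 3 is described in the study's sample sheet as a control, and without it the median was -0.28 with no call. For the TNF-α response in HaCaT-p65 minus HaCaT-vector none of the members or of all genes passed (0% higher and 0% lower), with 1 member and 1453 genes at an unadjusted p under 0.05. PLK1 had the smallest p (-0.65 ± 0.32), then BIRC5 (-0.58) and KIF14 (0.32).

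Gefitinib with EGF was followed by higher values than EGF alone in HaCaT-EGFR. Over 4 h and 8 h together 34 members were above 0 with a median of 0.23 against -0.02 for all genes, and 2 passed as higher and 0 as lower (background 0.491% and 0.743%). CDC25C was 8.09 and 8.06 at 4 h and 8 h with gefitinib, against the EGF arrays given above, and differed by 0.72 ± 0.16 (adjusted p = 0.021). NUSAP1 was 11.28 and 11.40 against 10.70 to 11.02 at 4 h and 11.08 and 10.83 at 8 h, and differed by 0.42 ± 0.10 (adjusted p = 0.034). Both gefitinib arrays were above all EGF arrays for these genes. KIF14 (0.36, adjusted p = 0.21) came next. CDC25C lost its call without EGF 8 h replicate 1 (0.74) and NUSAP1 without EGF 8 h replicate CH1 or EGF 4 h replicate 1 (0.36 and 0.36). The list mean was 9.31 at 4 h and 9.33 at 8 h. These comparisons share the EGF arrays with those of EGF over starved cells, and with 1 array per time the spread is taken from the other groups.

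In serum the date terms left the 2 gefitinib arrays set against the 2 serum arrays of date 6, and 30 members were above 0 with a median of 0.14, and none passed in either direction (background 0.87% higher and 0.915% lower). NUSAP1 (11.27 and 11.45 against 10.87 and 11.06) differed by 0.40 ± 0.12 (adjusted p = 0.065), KIF14 by 0.43 and CDC25C by 0.58, and 4 had an unadjusted p under 0.05. These serum arrays were labelled 4 h and 8 h, as were the gefitinib arrays, and the fit pooled the times. The list mean with gefitinib was 9.21 against 8.98 at 4 h and 9.51 against 9.385 at 8 h. The median was -0.04 without the 4 h serum array and 0.41 without the 8 h one, settings in which the times no longer match.

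For LY294002 with EGF the size of the difference depended on the EGF arrays it was set against. Averaged over HaCaT-EGFR and HaCaT-vector at 4 h 35 members were below 0 with a median of -0.17, and none passed in either direction (background 0.177% higher and 0.298% lower). KIF14 (-0.44 ± 0.13, adjusted p = 0.13), the checkpoint kinase BUB1B (-0.50, 0.27) and CCNB1, cyclin B1 (-0.42, 0.36) had the smallest p, and 7 members had an unadjusted p under 0.05. The list mean was 8.58 in HaCaT-EGFR and 8.91 in HaCaT-vector, with EGF arrays at 8.61 to 9.24 and 8.90 to 8.95, so the former was below its EGF arrays and the latter within them. Against the EGF array of the same replicate and date, which stood at 8.61 in HaCaT-EGFR and 8.90 in HaCaT-vector, LY294002 was slightly lower in the former and slightly higher in the latter. Over all EGF arrays of date 6 the member median was -0.15. U1026 gave 21 members below 0 with a median of -0.04 and no call (background 1.05% higher and 1.42% lower). On date 6, which held both U1026 arrays, 17 were below 0 and 19 above with a median of 0.01, and the list means of 8.78 in HaCaT-EGFR and 9.06 in HaCaT-vector were above those of the same-replicate EGF arrays. HMMR (0.56 ± 0.19, adjusted p = 0.13), KIF14 (-0.25) and AURKB (-0.27) had the smallest p, and HMMR was the 1 member with an unadjusted p under 0.05. The inhibitors differ in target, and were not compared with each other.

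MKI67, CCNB1, PLK1, FOXM1 and CDC20 were followed over every group as the genes most used to mark dividing cells, and none of the 5 passed in any comparison. Over the 11 groups of 3 or more arrays, MKI67, the Ki-67 antigen, ran from 8.58 ± 0.18 (SD, n = 3) in HaCaT-HRAS to 9.04 ± 0.24 (n = 5) in HaCaT-EGFR, both in serum. CCNB1 ran from 9.44 ± 0.32 (n = 3) in HaCaT-p65 to 9.96 ± 0.15 (n = 3) in HaCaT-HRAS in serum. PLK1 ran from 6.63 ± 0.44 (n = 4) in HaCaT-p65 with TNF-α to 7.21 ± 0.15 (n = 5) in HaCaT-EGFR in serum. FOXM1 ran from 8.93 ± 0.10 (n = 4) in HaCaT-vector with EGF to 9.34 ± 0.092 (n = 3) in HaCaT-HRAS in serum. CDC20, which activates the anaphase-promoting complex, ran from 8.36 ± 0.088 (n = 4) in HaCaT-vector with EGF to 8.96 ± 0.11 (n = 5) in HaCaT-EGFR in serum. The smallest limma adjusted p of these genes was 0.052, for CCNB1 in HaCaT-HRAS over HaCaT (0.40). These values rest on a single probe set per gene. The other MKI67 probe sets correlated with the used one at 0.39, 0.56 and 0.62, and the other CCNB1 probe set at 0.42.

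Further lists set the 36 genes among others of the cycle. With EGF at 4 h in HaCaT-EGFR 0 of 45 further mitotic genes were higher and 4 lower, the kinetochore genes SPC24 (-0.48) and NDC80 (-0.44), DEPDC1 (-0.40) and CKAP2 (-0.37), with 42 below 0 and a median of -0.22. Of 39 G1/S and replication genes 1 was lower, DTL (-0.73), with 37 below 0 and a median of -0.25. Of 19 DREAM and E2F regulators 2 were lower, E2F2 (-0.82) and the MuvB subunit LIN52 (-0.48). Both were also lower with EGF in HaCaT-vector (E2F2 -0.96, LIN52 -0.52). E2F2 was lower with TNF-α in HaCaT-p65 (-0.85) and with LY294002 (-1.21), and higher with gefitinib, with EGF (0.76) and in serum (0.91).

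Among 15 inhibitors of cyclin-dependent kinases and genes of the G2/M damage response 4 were lower with EGF at 4 h in HaCaT-EGFR, CDKN1B (p27, -0.54), CCNG1 (-0.53), WEE1, which inhibits CDK1 (-0.38), and GADD45A (-0.36). CDKN1B and GADD45A were higher with gefitinib (0.75 and 0.74 with EGF, 0.80 and 0.86 in serum). CDKN1A (p21) rose by 1.22 and CCNG2 by 1.06 with LY294002, where all 39 G1/S and replication genes were below 0 with a median of -0.33 and none passed. With U1026 GADD45A (0.95), CCNG2 (0.81) and CDKN1B (0.57) were higher and CCNE1, cyclin E1 (-0.75), lower. Between lines CCNE1 was higher than in HaCaT-vector in HaCaT-HRAS (2.23), HaCaT-p65 (1.11) and HaCaT-EGFR (0.67). HaCaT-vector itself was lower than HaCaT in CCNE1 (-0.99), and against HaCaT it was higher in HaCaT-HRAS (1.24) and did not pass in HaCaT-p65 (0.12) or HaCaT-EGFR (-0.32). RBL1 (p107, 0.71) and E2F1 (0.68) were higher in HaCaT-EGFR than in HaCaT-vector. GADD45A (-1.01) and MELK (-0.82) were lower and CCNG1 (0.85) higher in HaCaT-HRAS. Comparisons with HaCaT-vector share its arrays, and those with EGF share the EGF arrays.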

How the data were processed

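The 58 arrays were of the Affymetrix U133 Plus 2.0 type and held RNA of 5 HaCaT lines. The authors summarized 54675 probe sets with fRMA, subtracted date effects fitted with limma and deposited log2 values, which were used as deposited. fRMA weighs probes by a fixed reference set. The authors fitted dates together with conditions, so a condition that lies on 1 date is compared with other dates only through groups that link them. Per-array medians ran from 4.98 to 5.24, and the number of arrays, not read depth, limits precision. All serum arrays of the other 4 lines lay on date 1 and all inhibitor arrays on date 6. The labels name RNeasy for all arrays, while the study's sample sheet lists Trizol for date 6, so RNA isolation and date cannot be told apart.

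Of the probe sets 41097 carried 1 gene symbol in the platform annotation, 1801 several and 11777 none, and per gene the one with the highest mean was kept (19775 genes). The 36 members had 73 probe sets, and 26 of the 37 not used correlated with the used one above 0.5. limma 3.58.1 in R 4.3.3 fitted all 58 arrays, with 6 dates as terms (which left date coefficients of at most 1.3e-07). Line, serum and gefitinib-in-serum comparisons used 18 conditions with times pooled (35 residual degrees of freedom), the others 24 conditions with times apart (29). All genes entered the Benjamini-Hochberg adjustment, with 0.05 as the threshold. The method was tested on simulated data with independent noise. They held no correlation between genes or arrays, so that test does not cover such correlation. Replicate numbers paired arrays (every same-number correlation above 0.1) in HaCaT-HRAS and HaCaT-EGFR over HaCaT-vector and HaCaT-HRAS over HaCaT-EGFR (3 pairs each), where the lowest were 0.19, 0.22 and 0.19. With EGF at 8 h both correlations were 0.11, but 2 pairs are too few for this check.

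The members, the further lists and the named genes (per comparison up to 8 members with the largest difference among those that passed, or the 3 with the smallest p where fewer than 3 passed, and up to 4 genes of each further list; MKI67, CCNB1, PLK1, FOXM1 and CDC20 throughout) were chosen with earlier results of these data known. KIF14 in HaCaT-HRAS over HaCaT-EGFR was named as the ninth. Promoters were read from RefSeq (GRCh38.p14); gene order on chromosomes came from the same assembly. Further alternatives were another handling of times and dates, only the arrays compared, no inhibitor arrays, median centring, quantile normalization, the mean of all probe sets, genes with a mean above 5 only, a mean-variance trend, each array left out and the replicate number as a block.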

Additional observations from a re-analysis of the deposited data

Results flagged for a closer look

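The array values of 11 genes and of the list mean in the 6 groups of 4 or 5 arrays were examined for a single array far from the others, and 5 of 72 sets stood out, where chance gives about 1 in 20. CCNB1 in starved HaCaT-EGFR at 4 h had its lowest array, replicate 1, at 9.64 with the next at 9.83. CCNB1 in starved HaCaT-vector had its highest array, replicate 1, at 9.89 with the next at 9.86, in a group of narrow range. FOXM1 in HaCaT-vector with EGF had its highest array, replicate CH2, at 9.08 with the next at 8.90. In HaCaT-p65 with TNF-α at 4 h replicate 1 had the highest UBE2C, at 9.01 with the next at 8.79, and the lowest TPX2, at 8.29 with the next at 8.89. The causes were not tested.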

How the results depend on the processing

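Over 48 counts of members (24 comparisons, higher and lower) and 862 alternative settings, 761 counts stayed within 1.5 times the reported one and 101 moved. Of 34 single calls under 596 settings 470 held, 126 no longer passed and 0 reversed. The 8 that held throughout were CCNA2 in HaCaT-HRAS over HaCaT-vector, PTTG1 and HMMR in HaCaT-p65 over HaCaT-vector, UBE2C and TPX2 in HaCaT-EGFR over HaCaT-vector, and AURKA, NUSAP1 and TPX2 in HaCaT-HRAS over HaCaT-EGFR. The causes of the moves were not tested. Counts rest on few arrays, and groups of 1 array borrow the spread of the others.

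With the other handling of times (pooled or apart), members lower became 1 in starved p65 over vector, 6 with EGF at 8 h and 1 with TNF-α in p65, and members higher 0 in p65 over vector. Without dates, members lower became 1 in EGFR over vector, 1 in vector over HaCaT, 1 in p65 over HaCaT, 5 in serum over starved, 3 in starved EGFR over vector, 2 in starved p65 over vector, 1 with EGF in vector, 1 with TNF-α in p65 and 1 with LY294002, and members higher 3 in EGFR over HaCaT, 3 with gefitinib in serum, 6 in starved p65 over vector and 1 with U1026. Without inhibitor arrays HRAS over EGFR had 1 higher. With arrays centred on their median, members higher became 0 in HRAS over vector, 0 in p65 over vector, 2 in EGFR over HaCaT, 1 in HRAS over EGFR and 1 with gefitinib and EGF, and EGF at 4 h in EGFR had 1 lower (the all-genes median moved to -0.10 in HRAS over vector and -0.12 in HRAS over EGFR). With quantile normalization p65 over vector had 0 higher. With the mean of all probe sets, EGFR over vector had 1 lower, HRAS over EGFR 1 higher, starved p65 over vector 0 higher, EGF at 4 h in EGFR 2 lower and gefitinib with EGF 1 higher. With genes above a mean of 5 only, EGFR over vector had 1 lower, vector over HaCaT 1 lower, EGFR over HaCaT 3 higher and gefitinib in serum 1 higher, and with a mean-variance trend vector over HaCaT had 1 lower, EGFR over HaCaT 3 higher and gefitinib in serum 1 higher. With only the arrays compared, HRAS over vector had 2 higher, p65 over vector 0 higher, HRAS over HaCaT 0 higher and 0 lower, EGFR over HaCaT 0 higher, HRAS over EGFR 1 higher and 4 lower, starved EGFR over vector 0 higher, EGF at 4 h 0 lower in EGFR and 2 lower in vector, and gefitinib with EGF 0 higher. With the replicate block, HRAS over vector had 2 higher, p65 over vector 0 higher, EGFR over vector 1 lower, HRAS over HaCaT 0 higher and 0 lower, EGFR over HaCaT 0 higher and EGF at 4 h in EGFR 7 lower.

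Leaving out each array in turn, members higher ran from 0 to 1 in HRAS over vector, p65 over vector, starved p65 over vector and starved 8 h over 4 h, from 0 to 2 in vector over HaCaT, p65 over HaCaT, starved EGFR over vector and gefitinib in serum, from 0 to 3 in EGFR over HaCaT, from 2 to 4 in HRAS over HaCaT, and from 1 to 2 in HRAS over EGFR and gefitinib with EGF. Members lower ran from 0 to 1 in EGFR over vector, vector over HaCaT, p65 over HaCaT, serum over starved and TNF-α in p65, from 2 to 3 in HRAS over vector, from 0 to 3 in HRAS over HaCaT, from 3 to 7 in HRAS over EGFR and from 0 to 9 with EGF at 4 h in EGFR. The other counts stayed as reported.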
